A study of Mus musculus with 2 samples.

Results

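The amyloid precursor protein family and the enzymes that cut it were described in mouse hippocampus through 9 genes: the substrates App, Aplp1 and Aplp2, the sheddases Adam10 and Bace1, and the gamma-secretase subunits Psen2, Ncstn, Aph1a and Psenen. They were selected by symbol, with no threshold on their values, and all 9 were found among the 55536 genes of the tables, with 65 annotated transcripts between them. Polyadenylated RNA came from tissue labelled layer of hippocampus, from adult C57BL/6 mice of strain B6NCrl, aged 6 months. No treatment or genetic change was named. The study holds 1 group of 2 libraries, biological replicates 1 and 2. Each was made from 20 ng of RNA, with a fragment size below 200 nt. They are separate tissue samples under 1 donor identifier, and since the labels do not say whether 2 animals were used, the spread between them may be technical. There is no second group, so the data describe levels and transcript forms at this age and the distance between replicates.

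App family proteins span the membrane once, with a large outer part and a short inner tail. ADAM10, a metalloprotease and the main alpha-secretase of neurons, cuts App within the amyloid-beta stretch, whereas BACE1, an aspartic protease, cuts at its start and begins the amyloid route. The stump that either leaves is cut inside the membrane by gamma-secretase, a complex of a presenilin such as Psen2, which is catalytic, with nicastrin (Ncstn), the scaffold Aph1 and the small activating subunit Pen-2 (Psenen). App and Aplp2 can carry a Kunitz domain, a fold that inhibits serine proteases, whereas the neuronal form of App is known for lacking it.

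The libraries held 38921662 expected counts over genes in replicate 1 and 39499350 in replicate 2, and 13787 genes reached 1 TPM in both. TPM, the number of transcripts of a gene per 1e+06 transcripts, is a level scaled for transcript length and depth. The 8 markers listed for glutamatergic neurons include the general neuronal genes Snap25, Syt1 and Rbfox3. All 8 were at 1 TPM or more in both libraries, with a summed level of 3557 TPM in replicate 1 and 4179 TPM in replicate 2. Replicate 1 stood apart in choroid plexus, the tissue that makes cerebrospinal fluid: its 8 listed markers summed to 15265 TPM there and to 131 TPM in replicate 2, and all 8 were higher in replicate 1. Most of either sum was Ttr, at 14956 TPM in replicate 1 and 117 TPM in replicate 2. None of the 8 markers was at 0 in either library. Although 1 label calls the mice male, 4 Y-linked genes had 1 read in all in replicate 1 and 0 in replicate 2, while Xist had 694 and 611.

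The transcript results turn on a few alternative exons and on the stretches that the enzymes use, printed here from the M21 transcript sequences on GRCm38 (mm10), 5′ to 3′ on the coding strand. The first pair holds the Kunitz exons, shown because the members differ most in how often they carry them. They are exon 7 of App-206 at chr16:85043576-85043743 and exon 7 of Aplp2-201 at chr9:31167561-31167728, both on the minus strand, and capitals mark the in-frame cysteine codons.
App Kunitz exon: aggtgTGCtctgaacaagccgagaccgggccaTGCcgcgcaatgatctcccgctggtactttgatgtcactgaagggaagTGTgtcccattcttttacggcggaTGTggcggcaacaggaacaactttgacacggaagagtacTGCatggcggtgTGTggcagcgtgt
Aplp2 Kunitz exon: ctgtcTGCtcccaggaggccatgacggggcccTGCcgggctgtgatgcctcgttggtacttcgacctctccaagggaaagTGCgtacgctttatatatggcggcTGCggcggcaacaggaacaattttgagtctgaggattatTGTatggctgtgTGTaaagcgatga
Both exons are 168 bases long and carry 6 cysteine codons each, and 114 of the 168 bases, or 67.9%, are identical position by position.

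The next stretches are the other exons whose use varied and the sites that define the proteases. In Aplp2 a 36-base exon of 12 codons, exon 13 of Aplp2-202 at chr9:31156190-31156225 on the minus strand, lies between the Kunitz exon and the membrane part. In Bace1 a 102-base exon of 34 codons, exon 6 of Bace1-201 at chr9:45858400-45858501 on the plus strand, holds the second of the 2 aspartic protease motifs of the protein (D, then T or S, then G, then S or T), at residue 289, in capitals. The motif at residue 93 lies outside it.
Aplp2 36-base exon: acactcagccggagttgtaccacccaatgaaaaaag
Bace1 active-site exon: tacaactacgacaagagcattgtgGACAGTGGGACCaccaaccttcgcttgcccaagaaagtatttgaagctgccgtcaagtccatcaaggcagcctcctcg
The amyloid-beta stretch covers codons 597 to 638 of App-201, in exons 14 and 15, between 84962794 and 84965720 on the minus strand of chromosome 16. Capitals mark the codons on either side of the ADAM10 cut.
App amyloid-beta stretch: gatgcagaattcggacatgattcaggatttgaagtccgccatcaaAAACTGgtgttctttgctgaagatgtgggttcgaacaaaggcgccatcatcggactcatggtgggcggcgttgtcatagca
These 42 codons are in 5 of the 6 complete App coding models, all but App-207, and the peptide they encode is in neither Aplp1-201 nor Aplp2-201. For Adam10, capitals mark the 3 histidine codons of its zinc-binding motif, in exons 9 and 10 of Adam10-201, between 70754281 and 70761600 on the plus strand of chromosome 9.
Adam10 zinc-binding stretch: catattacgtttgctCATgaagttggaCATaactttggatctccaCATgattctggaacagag

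App and Aplp1 were the most abundant members by TPM and the presenilin Psen2 the least. App stood at 398 TPM in replicate 1 and 354 TPM in replicate 2, a mean of 376 ± 31.4 (SD, n = 2). Its gene lies at chr16:84949685-85173766, and it ranked 402nd of all genes by mean TPM, above 97.1% of the genes at 1 TPM or more in both libraries. Aplp1, the family member largely restricted to neurons, at chr7:30434982-30445535, was at 252 and 302 TPM, a mean of 277 ± 35.6 (SD, n = 2). App was the higher in both libraries, and the ranges of these genes did not overlap.

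Aplp2, the widely expressed member at chr9:31149557-31211815, was at 151 TPM in replicate 1 and 128 TPM in replicate 2, a mean of 140 ± 16.9 (SD, n = 2). App exceeded it 2.63-fold in replicate 1 and 2.77-fold in replicate 2, a close pair of values. Aplp1 exceeded it 1.66-fold and 2.37-fold, so that ratio was the less even of these. Within the summed TPM of the family, 801 in replicate 1 and 783 in replicate 2, App made up 49.7% and 45.2%, Aplp1 31.4% and 38.5%, and Aplp2 18.9% and 16.3%. The sums differed by less than the split among the genes did: App and Aplp2 took the larger shares in replicate 1 and Aplp1 in replicate 2. These ratios and shares use all transcripts of each gene, partial models included. In complete coding models alone App was at 397 and 352 TPM, Aplp1 at 249 and 299, and Aplp2 at 60.5 and 47.3. On that base Aplp2 was further below App and Aplp1 and held a smaller share.

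The sheddases were well below the substrates and close to each other. Bace1, at chr9:45838580-45864399, had 26.3 TPM in replicate 1 and 24.7 TPM in replicate 2, a mean of 25.5 ± 1.14 (SD, n = 2). Adam10, at chr9:70678997-70780229, had 27.8 and 19.9 TPM, a mean of 23.9 ± 5.58 (SD, n = 2). Adam10 was the higher in replicate 1 and Bace1 in replicate 2, with a ratio of Bace1 to Adam10 of 0.945 and 1.24, so their order does not hold beyond the spread. App exceeded Bace1 15.1-fold and 14.3-fold, and exceeded Adam10 14.3-fold and 17.8-fold.

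Among the gamma-secretase subunits, Psenen had the highest TPM. It lies at chr7:30561863-30563627 and stood at 160 TPM in replicate 1 and 151 TPM in replicate 2, a mean of 156 ± 6.54 (SD, n = 2). It was above Aplp2 in each library, although its lower value, 151 TPM, lay just under the higher one of Aplp2. Nicastrin, which receives the substrate, differed least between the libraries in TPM of the first program: Ncstn, at chr1:172066013-172082795, had 32.6 and 33.2 TPM, a mean of 32.9 ± 0.403 (SD, n = 2). Aph1a, at chr3:95893969-95898288, had 28.3 and 46.0 TPM, a mean of 37.2 ± 12.5 (SD, n = 2), and its values enclosed those of Ncstn.

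Psen2, at chr1:180227004-180263438, had 8.88 TPM in replicate 1 and 10.8 TPM in replicate 2, a mean of 9.83 ± 1.34 (SD, n = 2), which placed it above 45.8% of the genes at 1 TPM or more. Psenen exceeded Psen2 18.0-fold and 14.0-fold, and Ncstn exceeded it 3.67-fold and 3.08-fold. Of the summed TPM of these 4 subunits, 230 in replicate 1 and 241 in replicate 2, Psenen held 69.7% and 62.7%. Psen2 held 3.86% and 4.48%. By expected counts, which are not divided by length, Psenen held 38.3% and 35.3% and Ncstn 40.6% and 40.1%. Other subunits of the complex were left out of this sum, and RNA levels are not amounts of assembled enzyme.

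Ordered by mean TPM, the members ran App, Aplp1, Psenen, Aplp2, Aph1a, Ncstn, Bace1, Adam10 and Psen2. Of the 8 neighbouring pairs in this order, 3 overlapped between the libraries: Psenen with Aplp2, Aph1a with Ncstn, and Bace1 with Adam10. The second quantification program, run by the authors on the same libraries, gave lower TPM for every member and exchanged only Bace1 and Adam10 in the order. Psen2 was then at 7.47 and 7.42 TPM, nearly equal, where the first program had the higher value in replicate 2.

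**Figure D1:**
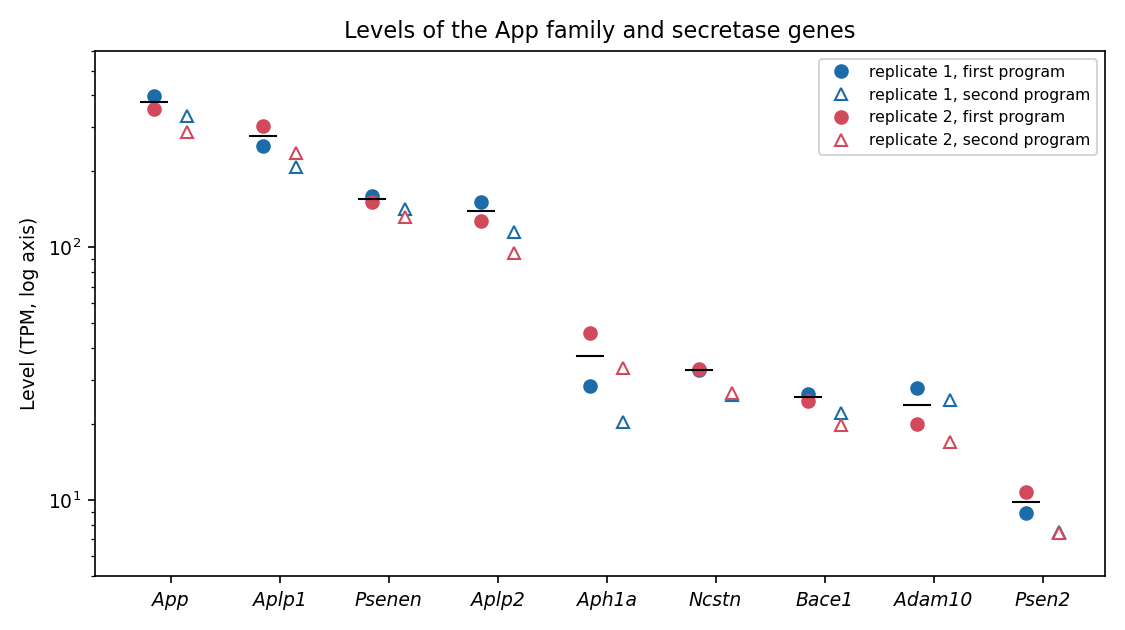
Level of each member in TPM on a log axis; filled circles are the first program, open triangles the second, blue replicate 1 and red replicate 2, and black bars the mean of the first program over 2 libraries. App is highest at 376 TPM and Psen2 lowest at 9.83 TPM, and the libraries differ most for Aph1a.

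Between the libraries, no member differed by as much as 2-fold. The log2 ratios of expected counts, replicate 1 minus replicate 2, lay between -0.47 for Aph1a and 0.46 for Adam10, with a median of 0.13 over the 9 members and -0.01 over the 14080 genes tested. By a two-sided exact binomial test against the scaled library sizes, with Benjamini-Hochberg adjustment over those genes, 0 of 9 members were called, where a call asks for both an adjusted p under 0.05 and a ratio of 2-fold or more. Over all genes 339, or 2.41%, were called, 278 of them higher in replicate 1. The test covers counting error only, so it compares these libraries and not a condition.

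At an adjusted p under 0.05 and any size, 6 of 9 members differed, beside 47.1% of all genes tested. App, Aplp2, Bace1 and Adam10 were higher in replicate 1, and Aplp1 and Aph1a were higher in replicate 2. For App, 37362 expected counts in replicate 1 and 34018 in replicate 2 gave a log2 ratio of 0.14, with an adjusted p of 2.19e-38 by the exact binomial test. Adam10, with 3765 and 2753 counts, had a ratio of 0.46 (adjusted p = 6.79e-36, exact binomial test), and Aplp2, with 11147 and 9409, one of 0.25 (adjusted p = 1.93e-34, the same exact test). These ratios are small, and such small p-values come with high counts per gene.

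Bace1 had 3506 counts in replicate 1 and 3208 in replicate 2, a log2 ratio of 0.14 (adjusted p = 0.000435, exact binomial test). Aplp1 went the other way, with 16698 and 20534 counts and a ratio of -0.29 (adjusted p = 4.36e-82, exact test). Psenen, Ncstn and Psen2 did not pass, with ratios of 0.03, -0.06 and 0.13 and adjusted p-values of 0.541, 0.168 and 0.291 by the exact binomial test. In the second program Ncstn passed, with a ratio of -0.13 (adjusted p = 0.000598, exact binomial test). A test that allows for a spread of 10% between replicates was also run (exactTest of edgeR with its dispersion preset to 0.01). On that test 0 of 9 members passed at any size, beside 564 of the 14080 genes tested. The common coefficient of variation between these libraries was 16.6%.

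Choroid plexus markers, with a median log2 ratio of 4.92, and markers listed for glutamatergic neurons, with a median of -0.22, moved between the same libraries. The latter list includes general neuronal genes. Among the other listed cell types, the medians were 0.38 for ependyma, 0.17 for astrocytes and 0.02 for oligodendrocytes. They were -0.33 for meningeal fibroblasts, -0.26 for oligodendrocyte precursors, -0.25 for endothelium, -0.11 for microglia and -0.04 for GABAergic neurons. The part of any of these in the ratios of the members was not tested. In bulk tissue fewer cells of a type and less RNA per cell cannot be told apart.

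Aph1a, with 957 and 1330 expected counts, had the lowest ratio of the members at -0.47 (adjusted p = 1.55e-13, exact binomial test). Its exons share 445 bases with Car14, a carbonic anhydrase gene on the opposite strand, which had 1315 counts in replicate 1 and 446 in replicate 2. Whether the counting used strand is not given in the sources used here, and without it reads from the shared bases cannot be told apart. Bace1 shares 975 bases with Rnf214 and 951 with Gm49338, Ncstn shares 195 with Copa, Psenen shares 119 with U2af1l4, and App shares 113 with Gm49227, all on the opposite strand.

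**Figure D2:**
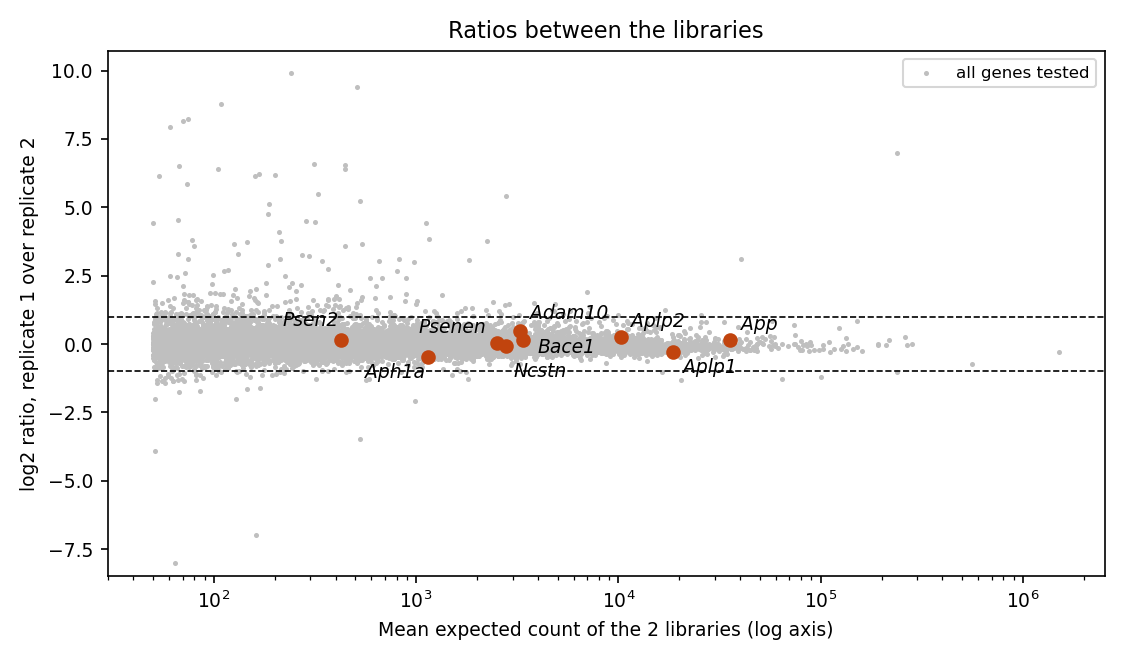
Log2 ratio of replicate 1 over replicate 2 against mean expected count (log axis) for the 14080 genes tested, with the 9 members in orange and dashed lines at the 2-fold limits. All members lie between -0.47 and 0.46, inside the lines.

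Transcript shares were taken as the percent of a gene's TPM in each annotated transcript. Of the 65 transcripts, 20 held at least 5% of their gene in either program. The leading transcript was the same in both programs and both libraries for 7 of 9 members. It was not for Aplp2 and Bace1, 2 of 9, beside 17.2% of the 8477 genes at 5 TPM or more with several transcripts. App, Aplp1, Ncstn, Psenen and Adam10 each had a clear main form.

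App was nearly all the form without the Kunitz domain. App-201, which encodes 695 amino acids, held 93.0% of App TPM in replicate 1 and 95.0% in replicate 2, and 91.3% and 93.5% in the second program. Exon use was taken as the percent held by transcripts with an exon, of the TPM in transcripts that hold it or splice across it. For the Kunitz exon this was 6.82% and 4.57% in the first program and 8.60% and 6.26% in the second, and replicate 1 was the higher in both. On the same base, the 57-base exon next to it was in 2.95% and 1.94%, and the 54-base exon further along was in 94.2% and 96.8%.

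The programs split the small Kunitz share differently among forms. App-204, with 733 amino acids, held 3.87% and 2.61% of App TPM in the first program and under 0.05% in the second. App-202, with 751 amino acids, was listed at 0 in both libraries by the first program and held 4.56% and 3.07% in the second. The deposited posterior mean count of App-202 in replicate 1 was 187, with a posterior SD of 133, beside an expected count of 0, so the sum over Kunitz forms was better fixed than its parts.

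Aplp1 had no alternative form of weight, and Aplp1-201, with 654 amino acids, held 99.1% and 99.2% of its TPM. Its level is therefore nearly that of 1 coding model, unlike Aplp2.

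Aplp2 was divided among 4 transcripts, and the programs ranked them differently. The first program put Aplp2-207 on top, a model of 4 exons with a retained intron and no annotated reading frame, at 31.6% in replicate 1 and 32.5% in replicate 2. The second gave it 20.1% and 20.8% and put Aplp2-202, with 707 amino acids, on top at 34.6% and 34.9%, where the first program had 26.5% and 26.1%. Aplp2-203, a coding model with an incomplete end, held 28.3% and 30.1%, and 30.5% and 32.5% in the second program. Aplp2-201, with 751 amino acids, held 13.4% and 11.1%, and 14.5% and 11.6%. The libraries differed little, while the programs moved Aplp2-207 by more than 10 percentage points.

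Aplp2-203 ends at the 36-base exon and Aplp2-207 starts downstream of it, so these models share 0 bases and together span the gene's length. Aplp2-207 shares 1731 bases with Aplp2-202 and has 146 bases that are intronic there. By expected counts, which are not divided by length, Aplp2-202 led in both programs and libraries, with 36.8% and 36.9% in the first. Complete coding models alone came to 60.5 TPM in replicate 1 and 47.3 TPM in replicate 2, of 151 and 128 for the gene.

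The Kunitz exon was far more used in Aplp2 than in App. Transcripts with the exon held 61.1% and 61.2% of the Aplp2 TPM that either carried or skipped it, and 56.6% and 55.8% in the second program. Among complete coding models only, the share was 33.6% and 29.8% in the first program and 29.6% and 25.0% in the second. Every one of these Aplp2 values was above every App value, whose highest was 8.60%. The gap between all and complete models comes from Aplp2-203, which carries the exon.

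The 36-base exon was in 80.3% and 83.5% of the Aplp2 TPM that held or skipped it, and in 66.4% and 70.2% among complete coding models. Aplp2-207 neither holds nor skips these exons and is outside both bases. No complete coding model of the 3 annotated for Aplp2 carries both this exon and the Kunitz exon, and only Aplp2-203 does. Aplp2-209, with neither, was at 0 in the first program and at effectively nothing in the second.

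**Figure D3:**
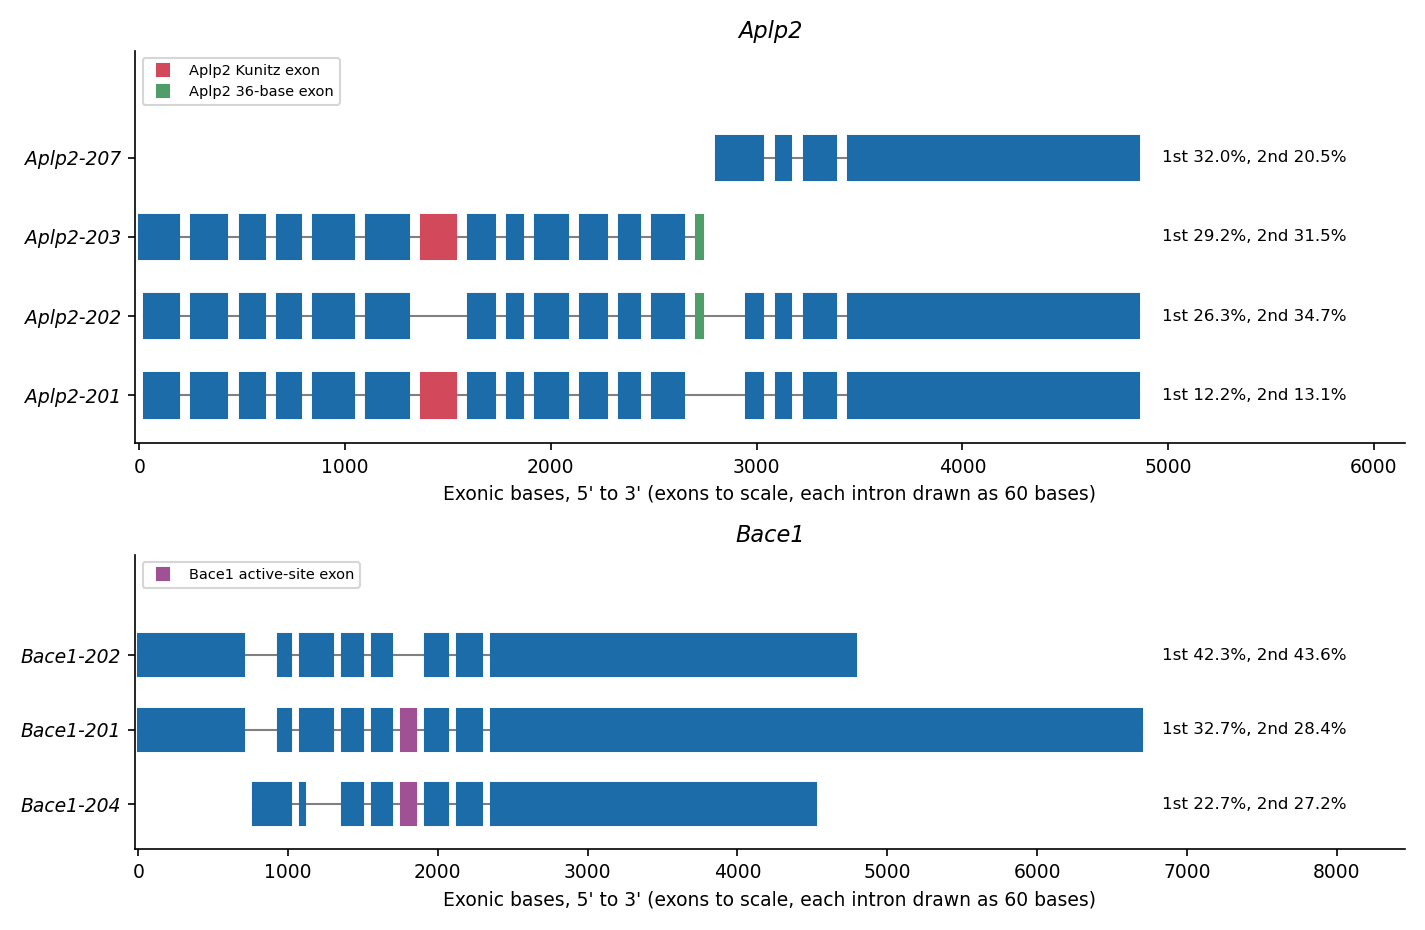
Exon models of the Aplp2 and Bace1 transcripts with at least 5% of gene TPM, drawn 5′ to 3′ with exons to scale in bases and each intron as a fixed gap; the percents at the right are mean shares over 2 libraries in the first and second program. Aplp2-203 and Aplp2-207 do not overlap, and Bace1-202 lacks the active-site exon.

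Bace1 was split between a form with and a form without its active-site exon, and here the libraries differed in the same way in both programs. Bace1-201, the full enzyme of 501 amino acids, held 37.7% in replicate 1 and 27.8% in replicate 2, and 33.8% and 23.1% in the second program. Bace1-202, with 467 amino acids and the reading frame kept, held 36.4% and 48.3%, and 36.5% and 50.6%. Bace1-204, a model with a retained intron, held 24.3% and 21.1%, and 28.1% and 26.3%.

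The exon with the active-site motif was in 63.2% of the Bace1 TPM that held or skipped it in replicate 1 and 51.7% in replicate 2, and in 63.2% and 49.4% by the second program. Counting complete coding models only, it was in 50.9% and 36.5%, and in 48.1% and 31.3%. Expected counts of Bace1-201 were 1784 and 1257, with posterior means of 1787 (posterior SD 85.2) and 1254 (posterior SD 76.6). Those of Bace1-202 were 1133 and 1442, with posterior means of 1127 (posterior SD 90.6) and 1441 (posterior SD 75.9). The differences between libraries exceeded these posterior SDs, which describe how reads were shared among transcripts and not replicate spread. Bace1-201 also ends 1915 bases beyond Bace1-202, and in these summaries use of the exon and of the longer end cannot be told apart. Bace1 also shares exon bases with genes on the opposite strand, as given above. Among them Gm49338 had 371 counts in replicate 1 and 238 in replicate 2, and Rnf214 had 1177 and 1275. Their part in this split was not tested. No read across the junctions was analysed here.

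**Figure D4:**
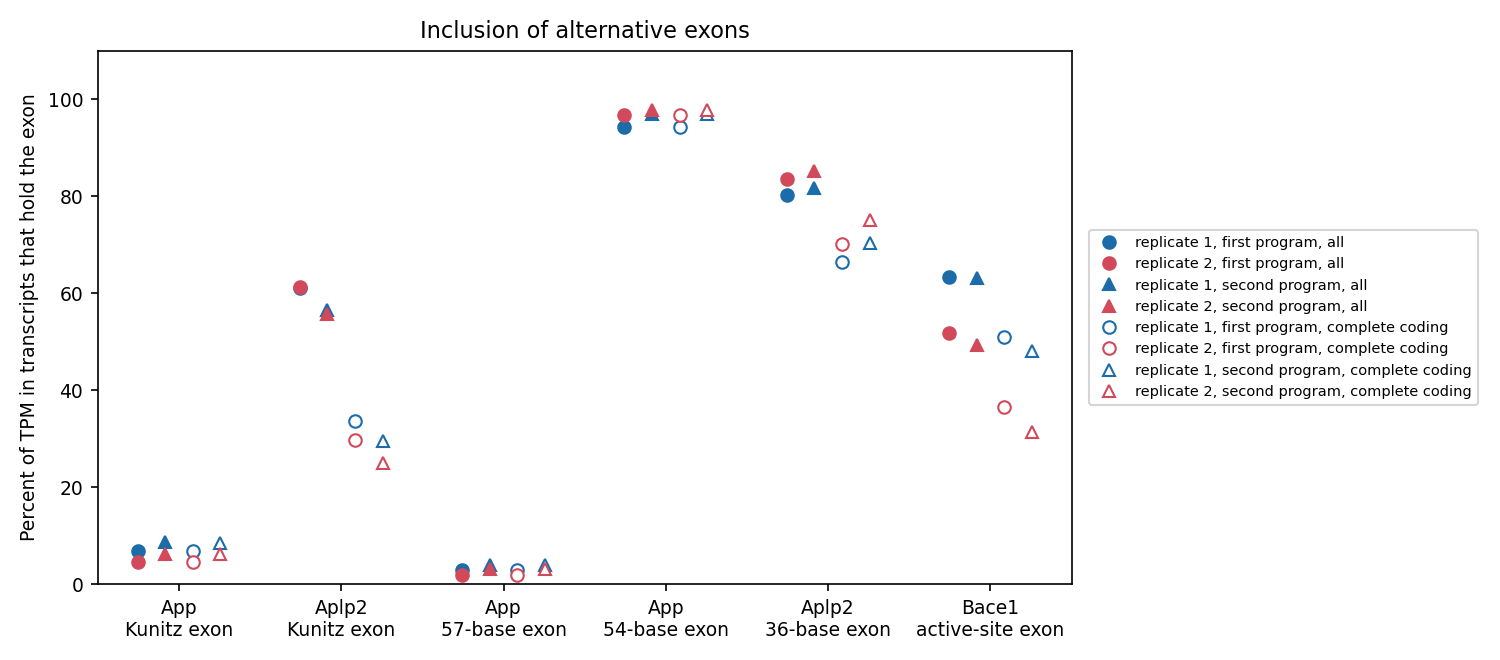
Percent of TPM in transcripts that hold each alternative exon, of the TPM in transcripts that hold or skip it; circles are the first program, triangles the second, blue replicate 1, red replicate 2, filled all transcripts and open complete coding ones. The App Kunitz exon stays under 9%, the Aplp2 Kunitz exon is at 25.0% or more, and the Bace1 exon is higher in replicate 1 in every pairing.

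Adam10 was a single form, and Adam10-201, with 749 amino acids, held 100% of its TPM in both libraries by the first program. Ncstn-201, with 708 amino acids, held 95.9% and 96.2%. Psenen-201 held 81.4% and 82.1% and Psenen-203 held 11.0% and 9.51%, and both encode 101 amino acids.

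The TPM of Aph1a rested on a very short model. Aph1a-203 is 286 bases long, all of them shared with Aph1a-201, and encodes an incomplete frame. It received 56.7 expected counts in replicate 1 and 123 in replicate 2. That was 5.92% and 9.26% of the gene's counts, and yet 47.4% and 58.3% of its TPM, since TPM divides by length. In the second program it held 62.1% and 74.9%. Aph1a-202, with 265 amino acids, held 30.2% and 22.9%, and only 5.84% and 2.46% in the second program, and Aph1a-201, with 247 amino acids, held 21.1% and 18.0%, and 29.8% and 20.6%. Both complete forms were thus ranked in opposite order by the programs.

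Psen2 had the widest shift of its main form between the libraries among the 9 members. Psen2-205, with 448 amino acids, held 70.9% in replicate 1 and 41.2% in replicate 2, and 64.8% and 46.1% in the second program. Psen2-207, a processed transcript of 538 bases with no reading frame, held 4.05% and 32.7%, from 4.28 and 43.5 expected counts, and 5.33% and 21.4% in the second program. Psen2-203, also of 448 amino acids, held 4.39% and 0%, and 13.1% and 0.41%. In counts the gene was at 444 and 408, higher in replicate 1, whereas in TPM it was higher in replicate 2, and in complete coding models alone it was at 8.11 and 6.81 TPM, again higher in replicate 1. Its direction thus depends on the unit. The exact test, run on counts, did not pass, and the TPM direction was not tested.

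Psen2-202, with 447 amino acids, held 16.0% and 22.0%, and 13.1% and 26.1% in the second program. It differs from Psen2-205 in the coding part shown by 3 bases at a junction between 180229470 and 180229856 on the minus strand of chromosome 1, in capitals in the longer form.
Psen2 junction, longer form: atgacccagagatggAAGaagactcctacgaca
Psen2 junction, shorter form: atgacccagagatggaagactcctacgaca

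**Figure D5:**
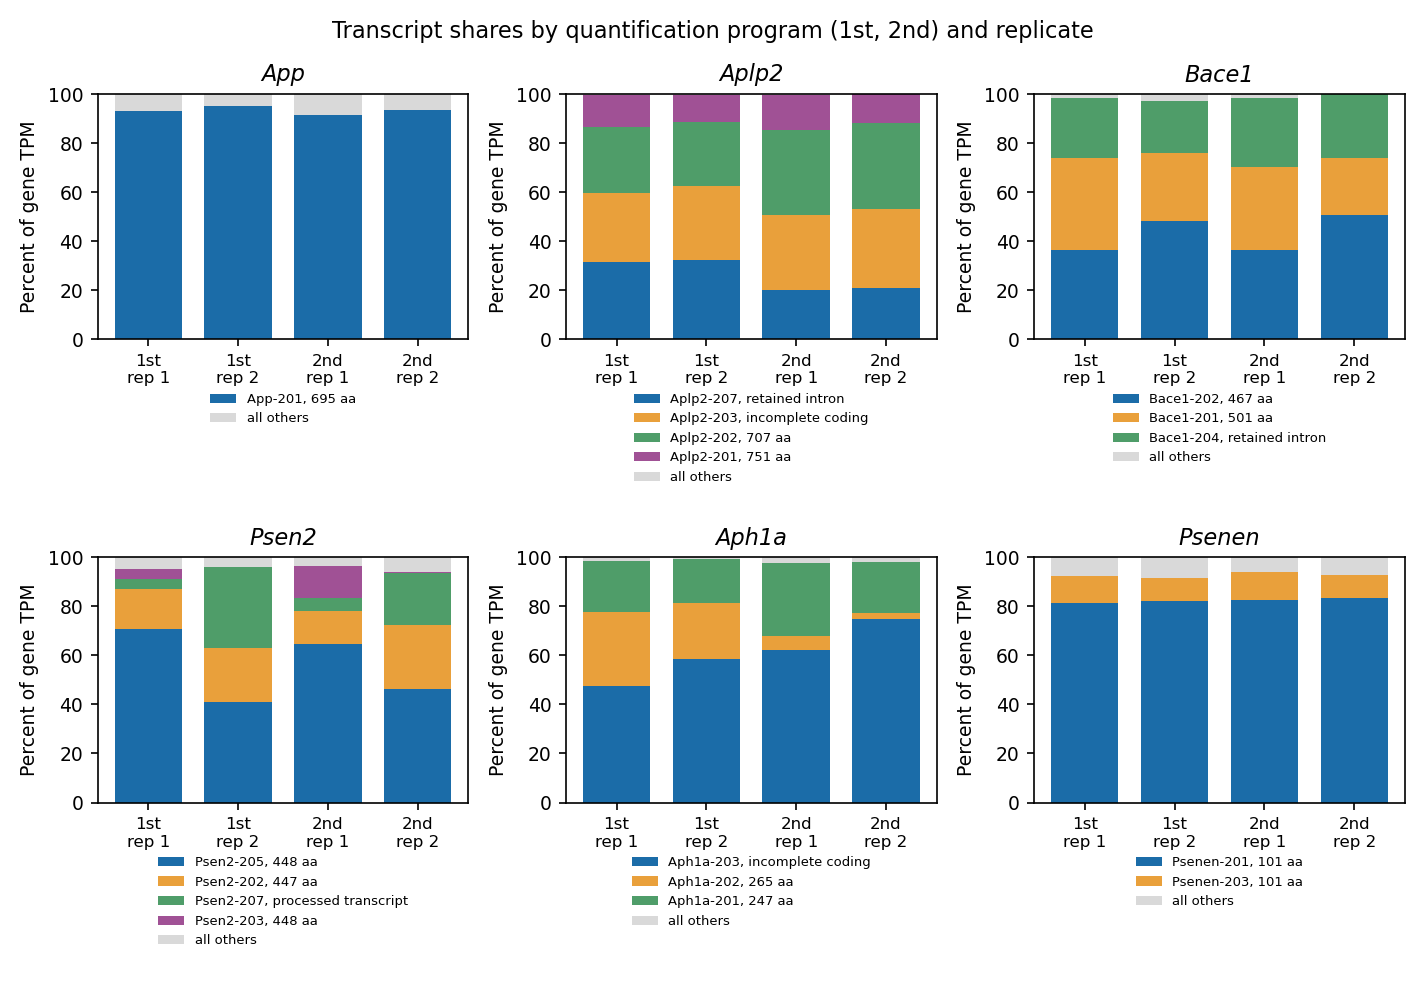
Stacked percent of gene TPM in each transcript with at least 5% in either program, for 6 members, by program (1st, 2nd) and replicate; gray is all other transcripts. App is almost wholly App-201, Aplp2 shifts between programs, and Bace1 and Psen2 shift between replicates.

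Taking complete coding models alone changed the order below the first 4 members, a count made after the values had been seen. Ncstn then stood at 31.6 ± 0.438 TPM (SD, n = 2), Adam10 at 23.9 ± 5.58, Bace1 at 19.1 ± 0.502 and Aph1a at 16.7 ± 3.04, with Psen2 at 7.46 ± 0.919. Aph1a thus fell from the fifth place to the eighth, and its libraries, at 14.5 and 18.8 TPM, then lay below those of Ncstn.

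Of 77 genes listed around the pathway, 74 were counted deeply enough to test and 2 were called between the libraries, both higher in replicate 1, beside 2.41% of all genes. The median log2 ratio of those tested was -0.01, as over all genes. At an adjusted p under 0.05 and any size, 47 of the 74 tested differed, 24 higher in replicate 1 and 23 higher in replicate 2. That is a larger share than the 47.1% of all genes tested. One of the called genes was Ace, angiotensin-converting enzyme, with 1392 counts in replicate 1 and 218 in replicate 2 (log2 ratio 2.68, adjusted p = 1.24e-208, exact binomial test). The other was Sfrp1, a secreted Wnt antagonist that also inhibits ADAM10, with 148 and 57 counts (log2 ratio 1.38, adjusted p = 8.14e-10, exact binomial test). Choroid plexus markers were higher in the same library, as given above, and their part in these calls was not tested.

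Among other secretases and related proteases, 0 of 8 tested were called. Lgmn, the asparagine endopeptidase also called delta-secretase, was highest at 129 ± 5.25 TPM (SD, n = 2). By gene TPM the Aph1 paralogs Aph1c, at 9.07 ± 2.84, and Aph1b, at 8.69 ± 2.18, were below Aph1a. The split between Aph1b and Aph1c, near-identical genes, is uncertain. By expected counts Aph1b, with 1404 and 1059, was above Aph1a, with 957 and 1330, in replicate 1 and below it in replicate 2. Complete coding models of Aph1a alone gave 16.7 ± 3.04 TPM in the first program and 7.46 ± 0.322 TPM in the second. That restriction was not made for the paralogs. The protease Mep1b had 0 reads in both libraries, which allows up to 3 reads in each.

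Among modulators of the secretases, Sfrp1 was called, 1 of 11 tested. Bsg, a membrane glycoprotein found with gamma-secretase, was at 1262 ± 283 TPM (SD, n = 2), the reticulon Rtn3, which binds BACE1, at 476 ± 25.4, and the retention receptor Rer1 at 163 ± 2.74. Timp1, a metalloprotease inhibitor, was lowest at 0.56 ± 0.16.

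Tetraspanins that escort Adam10 out of the endoplasmic reticulum were led by Tspan17 at 96.7 ± 0.460 TPM (SD, n = 2), then Tspan15 at 31.8 ± 5.38 and Tspan5 at 25.2 ± 2.09. Tspan10 had 8 reads in replicate 1 and 0 in replicate 2, and 0 of 5 tested were called.

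Adaptors of the App tail were all present, 13 of 13 at 1 TPM or more, and 0 of 13 were called. Apbb1 (Fe65), which joins the released tail, was at 343 ± 24.8 TPM (SD, n = 2), Apba2 (X11-like) at 116 ± 8.06 and the reelin adaptor Dab1 at 89.3 ± 14.2. Numbl was lowest at 7.37 ± 0.438. Apbb1 was thus close to App itself in level.

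Sorting factors for App and Bace1 were also complete, 11 of 11, with 0 called. The retromer subunits led, Vps29 at 312 ± 18.0 TPM (SD, n = 2), Vps35 at 65.3 ± 1.88 and Vps26a at 38.3 ± 1.29, and the receptor Sorcs1 was lowest at 1.85 ± 0.438. The BRI proteins that bind App were above it: Itm2b was at 1683 ± 111 TPM (SD, n = 2) and Itm2c at 503 ± 46.7, with 0 of 2 called.

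Proteases that can degrade amyloid-beta were led by the lysosomal cathepsins Ctsd, at 467 ± 100.3 TPM (SD, n = 2), and Ctsb, at 362 ± 38.5. The insulin-degrading enzyme Ide was at 23.1 ± 6.14, and neprilysin, Mme, was lowest at 0.95 ± 0.04. Ace was called, 1 of 8 tested. Other substrates of these secretases were led by the sodium channel subunit Scn2b at 283 ± 112 TPM (SD, n = 2), the adhesion protein Nrcam at 105 ± 3.88 and the receptor Epha4 at 79.0 ± 9.81, with Nrg1 lowest at 1.77 ± 0.594. None of the 16 was called, and App was above each of them by mean TPM.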

How the data were processed

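The authors deposited, per the file headers, gene and transcript tables from a first program in the RSEM column layout, with the expected count, TPM and FPKM, and transcript tables from a second in the kallisto layout, with the estimated count and TPM. Neither program is named in the sources used here, and no version is given. The deposited posterior SD column describes read assignment. The text beside the tables names mm10 and annotation M21.

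Members were joined by gene and transcript identifier. Rows outside the 55536 genes (97 spike-ins and 26248 named by a number) held 9 and 6.49 reads, 2.31e-05% and 1.64e-05%, and were left out. Expected counts were rounded, scaled by TMM (edgeR 4.0.16, R 4.3.3) and tested by a two-sided exact binomial test over genes with a mean of at least 50, with Benjamini-Hochberg adjustment and a prior count of 0.5 in ratios. The test was checked for recovery of known changes on libraries simulated with counting error only. That check does not cover spread between replicates. Other steps used Python 3.11.15 and pandas 2.3.3. Intervals and limits cover counting error only, since no molecular identifiers are named. Named genes are the 9 members, their transcripts at 5% or more, and the 3 highest, the lowest and any called gene of each pathway list. Alternatives were other scalings, minimums, units, the second program, coding models only and each library left out. Members and lists were chosen with earlier results of these data known, and alternative exons after transcript values were seen. Some pathway genes are not reported here.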

Additional observations from a re-analysis of the deposited data

How the results depend on the processing

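No member was called under any of the 8 alternatives run for that count. The count of all genes called, 339, became 739 with a minimum mean count of 10, 909 with none and 1412 with an absolute log2 ratio of at least 0.5, and stayed within 1.5 times under the others. The 6 members at an adjusted p under 0.05 at any size became 0 with a preset dispersion of 0.01, by exactTest. In the second program they became 7. Over all genes tested, 6638 of 14080 became 564 of 14080 with the preset dispersion and 7785 of 15176 in the second program. These alternatives were chosen for that count after seeing the data. The log2 ratio of Psen2 turned from 0.13 to -0.25 on the log2(TPM + 1) scale, and the other 8 members kept their direction under every scaling. App made up 47.4% of family TPM but 55.2% of counts, with 45.2% to 49.7% when 1 library was left out. Aplp2-207, which led Aplp2 in the first program at 32.0%, held 20.5% in the second program and 23.1% by expected counts, where Aplp2-202 led instead, and 31.6% to 32.5% without either library. Among protein-coding transcripts, which leave out Aplp2-207, Aplp2-203 led with 43.1%. Alternatives for exon use were chosen after seeing the data. The App Kunitz share of 5.70% became 7.43% in the second program and 7.64% by counts, and ran from 4.57% to 6.82% without either library. For Aplp2, the Kunitz share of 61.2% became 56.2% in the second program, 52.0% by counts and 31.7% in complete models, and the 36-base exon moved from 81.9% to 76.8% and 68.3% by counts and in complete models. For the Bace1 exon 57.5% became 43.7% in complete models, and 51.7% to 63.2% without either library. Apart from the models left out by construction, the causes were not tested. By counts, 27 of 36 pairs of members kept their order. No paired analysis was possible because there is 1 group. Depth limits low transcripts such as Psen2-207, with 4.28 and 43.5 counts, Psen2-203, with 16.8 and 0, and Aph1a-203, with 56.7 and 123.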
